A study of Homo sapiens with 5 samples.

Results

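The miR-30 family was followed in the line Caco2, derived from a human colorectal adenocarcinoma and growing as polarised epithelium, with and without depletion of PLEKHA7, a protein of the adherens junction. Its members were taken as the probes named exactly hsa-miR-30a, hsa-miR-30b, hsa-miR-30c, hsa-miR-30d and hsa-miR-30e, which are 5 of the 654 human miRNA probes of the NanoString nCounter Human v2 panel, an assay that counts fluorescent barcodes bound to each target without amplification. All cells carried an shRNA construct after infection and selection: a non-target shRNA in the control group (NT, replicates 1 and 3, n = 2) or 1 shRNA directed at PLEKHA7 (shPLEKHA7, replicates 1, 2 and 3, n = 3). The replicates came from independent infections of 1 cell line, so they are selected cell populations and not clones. The comparison asks how depletion of PLEKHA7 changes miRNA levels. PLEKHA7 itself has no probe on the panel, so the depletion was not checked here, and the source field of 2 shPLEKHA7 samples names another PLEKHA gene number, where the title was followed.

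A miRNA is cut out of the hairpin of a longer transcript by the Microprocessor (Drosha with DGCR8) and then by Dicer, and the mature strand guides Argonaute to messenger RNAs that pair with its seed, the bases near its 5′ end. Members of the miR-30 family share a seed and differ towards the 3′ end, so they can share many targets. In epithelial cells the family is known for repressing SNAI1, a transcription factor that drives epithelial-mesenchymal transition, and for being highly expressed in kidney and other epithelia.

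The sequences of miR-30a, miR-30c and miR-30e show how little separates these probes from each other. Their target sequences matched RefSeq mature miRNAs (GRCh38.p14) letter for letter, at 4 genes in all. miR-30b and miR-30d could not be compared, because the reference sequences used held no entries for their genes. They are written 5′ to 3′ with the seed, bases 2 to 8, in capitals.
hsa-miR-30a-5p: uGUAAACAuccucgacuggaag
hsa-miR-30e-5p: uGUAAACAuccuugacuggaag
hsa-miR-30c-5p: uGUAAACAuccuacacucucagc
miR-30a and miR-30e differ by 1 base, C13U counted from the 5′ end of miR-30a, and each differs from miR-30c at 5 of the first 22 positions, all between positions 13 and 20. The seed GUAAACA stood at bases 2 to 8 of the target sequence in 5 of 5 members and in no other of the 654 human probes. Other positions of the targets were not searched. The panel held 0 probes for the opposite (3p) arms of these hairpins. Cross-hybridisation between members was not tested.

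RefSeq places mature miR-30a at chr6:71403595-71403616 on the minus strand, in the gene MIR30A. MIR30C2, at a distance of 26.5 kb on the same strand, holds miR-30c at chr6:71377003-71377025, and neither hairpin lies inside another annotated gene. On chromosome 1 both miRNAs of a second pair lie within NFYC, which encodes a subunit of the transcription factor NF-Y: miR-30e at chr1:40754371-40754392 (MIR30E) and miR-30c again at chr1:40757300-40757322 (MIR30C1), both on the plus strand and with 2.84 kb between the hairpins. miR-30b and miR-30d come from a further pair of neighbouring genes, MIR30B and MIR30D. The 2 hairpins that give miR-30c are shown because their mature arm, in capitals, is the same while the flanks differ, so that the probe reads their sum.
MIR30C1: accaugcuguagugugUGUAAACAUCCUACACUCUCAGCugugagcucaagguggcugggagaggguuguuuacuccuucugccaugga
MIR30C2: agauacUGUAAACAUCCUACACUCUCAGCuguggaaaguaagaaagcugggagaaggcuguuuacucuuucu

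Human miRNA probes summed to between 31345 and 57152 counts per lane. The limit of detection, set as the mean plus 2 SD of the 8 negative-control probes of a lane, lay between 11.0 and 24.5 counts. Synthetic spike-ins added to every lane summed to 7686 and 10656 counts in the NT lanes and to between 10670 and 14239 in the shPLEKHA7 lanes, so spike-in counts were higher in every shPLEKHA7 lane than in any NT lane. The numbers that end the lane names also put both NT lanes ahead of the shPLEKHA7 lanes. Group and position of the lane therefore cannot be told apart, and the part of the spike-in difference in the results was not tested. All 5 probes of the miR-200 family, which marks epithelial cells, exceeded the limit in all lanes. Of 6 blood-cell probes on the panel 2 did so in all lanes, miR-223 with 31 to 48 counts and miR-142-5p with 23 to 42, and 3 (miR-150, miR-144 and miR-451) in none. Of 5 stromal and endothelial probes 2 did so in all lanes (miR-126 and miR-214) and 2 (miR-143 and miR-199a-5p) in none. Summed levels of the blood list ran from 121 to 124 TMM-normalized counts in NT and from 115 to 140 in shPLEKHA7 lanes, and those of the stromal list from 95.4 to 108 and from 96.6 to 117. TMM-normalized counts are raw counts brought to a common scale with factors computed from the bulk of the probes. The sums include probes under the limit of detection and cover opposite moves. In the stromal list miR-126 went from a mean of 50.8 in NT to 34.3 in shPLEKHA7 and miR-214 from 20.7 to 37.1. In the blood list miR-142-3p went from 25.7 to 14.7 and miR-223 from 35.7 to 45.0. The test below called none of the tested blood-cell and stromal probes. Of 3 probes of intestinal epithelium, miR-192 and miR-194 exceeded the limit of detection in all lanes and miR-215 in 3 of 5. miR-215, with 11 to 60 raw counts, was called higher in shPLEKHA7 (log2 fold change 1.22, SE 0.31, edgeR adjusted p = 0.0480). miR-192 and miR-194 were not called.

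All 5 members exceeded the limit of detection in all 5 lanes, by very different margins. miR-30b, at 66.9 to 120 times the limit, ranked between 5 and 8 among human probes by raw count in each lane. miR-30d (5.56 to 9.95 times the limit) and miR-30a (3.80 to 10.5 times) ranked between 33 and 51. miR-30c was at 1.80 to 3.00 times the limit and miR-30e at 1.06 to 1.94 times, so both sat close to background. Probes can differ in capture efficiency, so these ranks order counts and not molecules. Counting alone gives a relative error of 2.37% on average for miR-30b, 8.39% for miR-30d, 9.03% for miR-30a, 16.0% for miR-30c and 19.8% for miR-30e. The counts of miR-30b were 12.0 to 13.4 times those of miR-30d, the next in order, in the same lane. miR-30d and miR-30a were not separated beyond their spread, with miR-30d ahead in 4 of 5 lanes. miR-30a exceeded miR-30c 2.11 to 5.04 times, and miR-30c exceeded miR-30e 1.08 to 1.90 times, each in 5 of 5 lanes.

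In shPLEKHA7 cells miR-30a was 1.80-fold lower than in NT cells and was the member that passed the test. The lanes of miR-30b, miR-30d and miR-30e also lay below their NT lanes without passing, and miR-30c stood above them without passing. In the edgeR quasi-likelihood test over 204 probes with Benjamini-Hochberg adjustment, 1 of 5 members was called lower and 0 higher, where 3.92% of all tested probes were called lower and 2.45% higher. The median log2 fold change of the 5 members was -0.40, beside 0.059 over all tested probes, and 4 of the 5 were below 0, as were 43.6% of all tested probes. All 5 had TMM-normalized groups that did not overlap, 4 lower and 1 higher. Such groups were frequent, with 22.1% of tested probes entirely lower and 26.0% entirely higher in shPLEKHA7 lanes.

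miR-30a had raw counts of 93, 85 and 139 in shPLEKHA7 replicates 1, 2 and 3 and of 201 in NT replicate 3, with NT replicate 1 barely above the highest of the shPLEKHA7 lanes. The lanes stood at 174 and 184 TMM-normalized counts in NT and at 82.8, 114 and 103 in shPLEKHA7 once scaled. Every shPLEKHA7 lane was below both NT lanes, also in raw counts, where 2.45% of tested probes were entirely lower. Group means were 179 ± 7.06 (SD, n = 2) and 99.8 ± 15.8 (SD, n = 3), a log2 fold change of -0.86 (SE 0.16, edgeR adjusted p = 0.0211). It was the 4th lowest fold change of the 204. Counts of the hairpin's other arm were not measured.

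miR-30d had raw counts of 133 and 205 in NT, and of 136, 97 and 175 in shPLEKHA7 replicates 1, 2 and 3. On the TMM scale these were 165 and 188 in NT against 121, 130 and 129, so that the raw groups overlapped and the scaled ones did not. The shPLEKHA7 lanes lay close together, with means of 176 ± 16.7 (SD, n = 2) and 127 ± 4.96 (SD, n = 3). The log2 fold change was -0.48 (SE 0.14), and its edgeR adjusted p of 0.0844 missed the threshold. At an adjusted p under 0.1 it would be a second member called lower, beside 6.37% of all tested probes.

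miR-30b, the neighbour of miR-30d in the genome, had raw counts of 1605 and 2480 in NT and of 1635, 1301 and 2249 in shPLEKHA7. Scaled, the NT lanes were at 1986 and 2276 and the shPLEKHA7 lanes at 1455, 1745 and 1660. shPLEKHA7 replicate 1 was the lowest lane, as it was for miR-30a and miR-30d. The means of 2131 ± 205 (SD, n = 2) and 1620 ± 149 (SD, n = 3) gave a log2 fold change of -0.40 (SE 0.13, edgeR adjusted p = 0.115), a size close to that of miR-30d.

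miR-30e, which differs from miR-30a by 1 base, had only 26 and 30 raw counts in NT, and 26, 18 and 31 in shPLEKHA7. Its scaled counts were 32.2 and 27.5 in NT against 23.1, 24.1 and 22.9. In shPLEKHA7 replicate 1 its count was 1.06 times the limit of detection. The log2 fold change of -0.34 (SE 0.22, edgeR adjusted p = 0.425) did not pass.

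miR-30c was the one member above 0. Its raw counts were 28 and 40 in NT and 44, 33 and 59 in shPLEKHA7, and its scaled counts 34.6 and 36.7 in NT against 39.2, 44.3 and 43.5. The lowest shPLEKHA7 lane was thus above the higher NT lane by less than the counting error of either. Means of 35.7 ± 1.46 (SD, n = 2) and 42.3 ± 2.76 (SD, n = 3) gave a log2 fold change of 0.24 (SE 0.19, edgeR adjusted p = 0.545). Scaled to spike-in totals, its log2 fold change was -0.091 (SE 0.29), so no direction can be given for miR-30c.

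**Figure D1:**
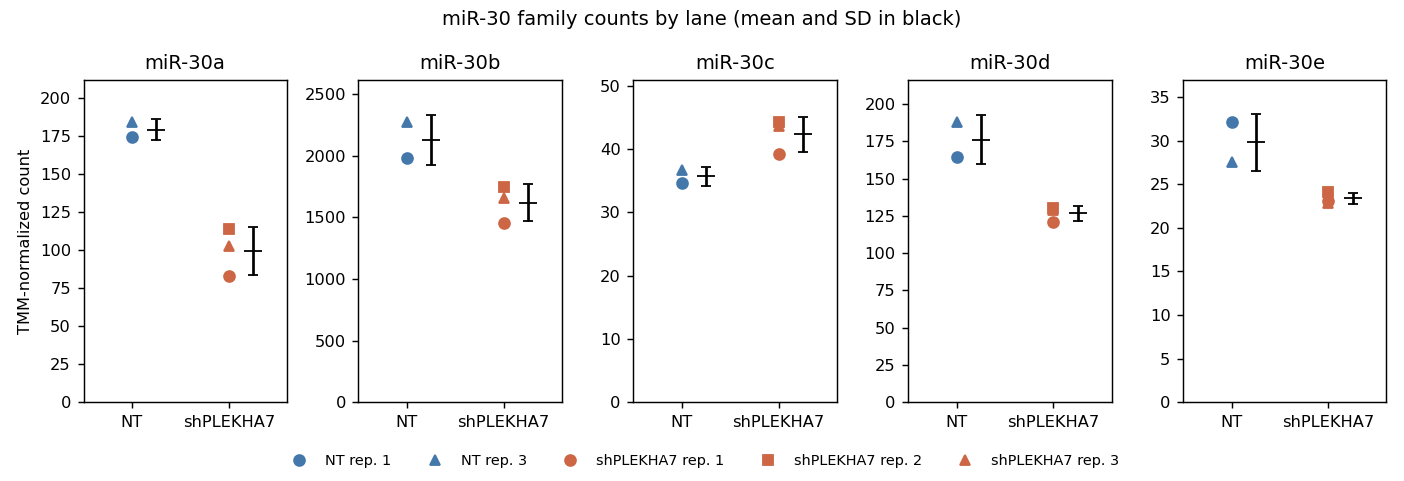
TMM-normalized counts (y axis, from 0, a separate scale per panel) of the 5 miR-30 members in each NT and shPLEKHA7 lane, 1 symbol per replicate number, with the group mean and SD in black. The shPLEKHA7 lanes of miR-30a lie between 82.8 and 114, all below the NT lanes at 174 and 184, and those of miR-30c lie above its NT lanes.

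How firmly miR-30a can be called depends on both NT lanes and on the scaling. Without NT replicate 1 its log2 fold change was -0.90, and without NT replicate 3 it was -0.77. In both fits miR-30a was no longer called, with a lone NT sample taken to vary like the shPLEKHA7 samples. Calls were lost over the panel in these fits and not for miR-30a alone. Scaling to the housekeeping mRNAs gave a larger fall with a wider error (log2 -0.93, SE 0.31, edgeR adjusted p = 0.0709). Across 15 alternatives that kept all samples and used no block 12 called miR-30a, 2 called miR-30b, 1 called miR-30d, and 0 called miR-30c or miR-30e. Scaling to spike-in totals gave log2 fold changes of -1.19 for miR-30a, -0.82 for miR-30d and -0.74 for miR-30b, and called all 3 lower, with 29 of 204 probes (14.2%) called lower over the panel. It moved the median of all tested probes to -0.27, and the members' median of -0.74 stands beside that. Under each of 21 alternatives, 4 of the 5 members lay below the median of the probes tested in that fit.

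**Figure D2:**
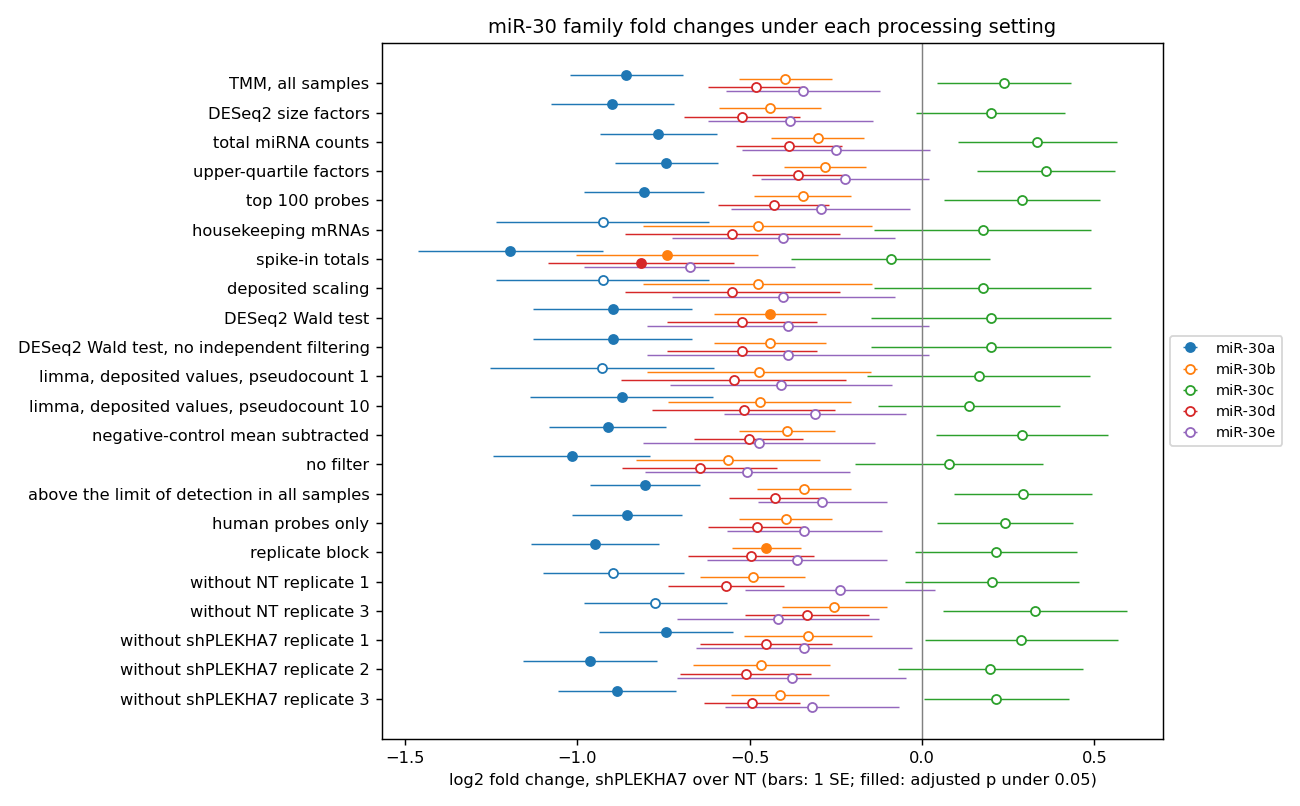
Log2 fold change of shPLEKHA7 over NT (x axis, bars 1 SE) for the 5 members under each processing setting (rows), filled where the adjusted p was under 0.05. miR-30a ranged from -1.19 to -0.74 and was the leftmost member in each row, while miR-30c crossed 0 under spike-in totals.

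The authors' deposited table gives each lane as a signed fold against the mean of the NT lanes, negative where the lane is lower. For miR-30a the authors' deposited table lists -2.25, -2.03 and -1.57 in shPLEKHA7 replicates 1, 2 and 3. For miR-30d the authors' deposited table lists -1.52, -1.75 and -1.23, and for miR-30b -1.52, -1.58 and -1.15. In that table shPLEKHA7 replicate 3 showed the smallest fall for these members, and its miR-30b value of 2021 was above the 1967 of NT replicate 1. miR-30e stood at -1.33, -1.58 and -1.16 in the authors' deposited table, and miR-30c at 1.06, -1.04 and 1.36, on both sides of the NT mean.

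Ratios between members of the same lane do not depend on how lanes are scaled, so they were compared as raw counts. Over the 10 pairs, the log2 ratio of raw counts did not overlap between NT and shPLEKHA7 in 7 pairs, which are all those holding miR-30a or miR-30c. Of all 7260 pairs of the 121 human probes above the limit in every lane, 43.6% had ratios that did not overlap. With 2 and 3 lanes a two-sided exact permutation test cannot give a p below 0.1. That value was reached by 6 of the 10 ratios, and the lowest Benjamini-Hochberg adjusted p over the 10 was 0.167, so none passed.

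The widest of these shifts was between miR-30a and miR-30c, which MIR30A and MIR30C2 encode on 1 stretch of chromosome 6 and which have 5 differences in the sequences above. Its log2 ratio was 2.33 in both NT lanes and 1.08, 1.37 and 1.24 in shPLEKHA7 replicates 1, 2 and 3. miR-30a thus had 5.04 times the count of miR-30c in NT replicate 1 and 2.11 times in shPLEKHA7 replicate 1, the highest and the lowest ratio. The difference of -1.10 (exact permutation p = 0.1, adjusted 0.167) compares with a counting error of 0.24, which is far wider than the NT SD of 0.0022. Of all pairs of probes, 5.08% shifted at least as far in either direction, where the median shift was 0.38. The pair was picked as the widest among the members, so this share is a description and not a test. With the mean of the negative controls subtracted the difference was -1.20, and with any 1 lane left out it stayed between -1.17 and -1.03.

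For miR-30b and miR-30d, which are encoded side by side, the ratio moved little between groups. Their log2 ratio had a mean of 3.59 with an SD of 0.0025 over the NT lanes and stood at 3.59, 3.75 and 3.68 in shPLEKHA7 replicates 1, 2 and 3. The groups overlapped, with a difference of 0.077 against a counting error of 0.11 (exact permutation p = 0.4). Of all pairs of probes, 89.0% shifted at least as far. Small shifts were not particular to these neighbours: miR-30b over miR-30e shifted by -0.048 (93.3% of all pairs at least as far) and miR-30d over miR-30e by -0.13 (82.4%). The other ratio between genomic neighbours, miR-30c over miR-30e, went from 0.11 and 0.42 in NT to 0.76, 0.87 and 0.93, a difference of 0.59 with a counting error of 0.33 (exact permutation p = 0.1, adjusted 0.167). miR-30a and miR-30e, which differ by 1 base, had log2 ratios of 2.44 and 2.74 in NT and 1.84, 2.24 and 2.16 in shPLEKHA7, a difference of -0.51 with a counting error of 0.28. Against miR-30d, miR-30a went from 0.084 and -0.028 to -0.55, -0.19 and -0.33, with a gap between groups of 0.16 and a permutation p of 0.2 (exact). Among all pairs of probes, 30% shifted at least as far as miR-30c over miR-30e and 36.9% as far as miR-30a over miR-30e. For miR-30a over miR-30d the share was 49.7%. Both ratios to miR-30e of miR-30b and miR-30d overlapped between groups.

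**Figure D3:**
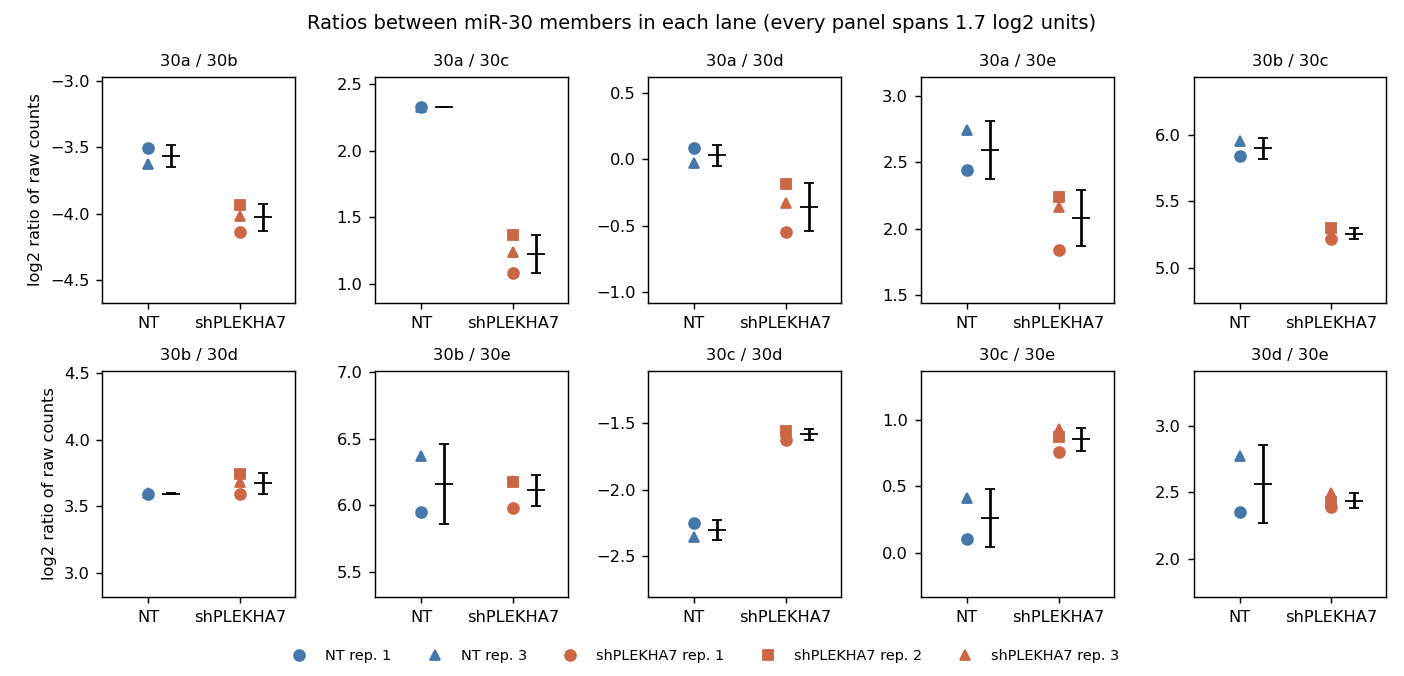
Log2 ratio of raw counts (y axis, each panel spanning the same number of units) for the 10 pairs of miR-30 members in each NT and shPLEKHA7 lane, with mean and SD in black. The ratio of miR-30a to miR-30c falls from 2.33 in NT to between 1.08 and 1.37, and the ratio of miR-30b to miR-30d stays between 3.59 and 3.75.

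Summed over its 5 probes, the family took 5.65% of the human miRNA count in NT replicate 1 (exact Clopper-Pearson 95% interval 5.40% to 5.90%) and 5.97% in NT replicate 3 (5.76% to 6.18%). In shPLEKHA7 replicates 1, 2 and 3 it took 4.13% (3.96% to 4.32%), 4.89% (4.66% to 5.14%) and 4.64% (4.47% to 4.82%). These intervals cover counting error only. Every shPLEKHA7 lane was lower than both NT lanes, with means of 5.81% ± 0.23 (SD, n = 2) and 4.56% ± 0.39 (SD, n = 3). The TMM-normalized sum differed by -640 counts, of which miR-30b, though not called, made up 79.8%, miR-30a 12.5%, miR-30d 7.75% and miR-30e 1.01%, with miR-30c on the other side at -1.04%.

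Within the family, miR-30b held 83.0% and 83.9% of the counts in NT and 84.5% to 84.8% in shPLEKHA7 lanes. The share of miR-30a was 7.29% and 6.80% in NT and 4.81%, 5.54% and 5.24% in shPLEKHA7 replicates 1, 2 and 3. Its highest shPLEKHA7 interval (4.45% to 6.81%) and its lower NT interval (5.92% to 7.77%) overlap, so single lanes do not separate the groups by counting alone. The share of miR-30c went the other way, from 1.45% and 1.35% to 2.28%, 2.15% and 2.22%. Its intervals overlap as well, with 0.96% to 2.09% in NT replicate 1 and 1.49% to 3.01% in shPLEKHA7 replicate 2. A share also depends on the other members, miR-30b above all, so this rise gives no direction for miR-30c itself. The share of miR-30d lay between 6.32% and 7.03% over all lanes, and that of miR-30e between 1.01% and 1.35%, each with overlapping groups.

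The probes whose lane profile was most like each member's were sought among 116 other human probes above the limit of detection in all lanes. Likeness was the root-mean-square difference of log2 TMM-normalized counts over the 5 lanes, each probe centred on its own mean. For miR-30a the nearest were miR-24 (0.14), miR-183 (0.14) and miR-23a (0.15), where the median probe was at 0.52. miR-24 and miR-23a were themselves called lower (log2 -0.85 and -0.76, edgeR adjusted p = 0.0186 and 0.0199), and miR-183 was at -0.59 (edgeR adjusted p = 0.0606). miR-30d and miR-30b had the same 3 nearest probes, miR-148b (0.017 and 0.049), miR-193b (0.043 and 0.096) and miR-301a (0.080 and 0.056), and the difference between miR-30d and miR-30b was 0.063. None of those 3 was called. For miR-30e the nearest were miR-221 (0.077), miR-103 (0.078) and miR-15b (0.080), and for miR-30c they were miR-1537 (0.044), miR-296-5p (0.073) and miR-450b-5p (0.079). Among the members themselves, miR-30a and miR-30c were the least alike, at 0.55. With 5 lanes from 2 groups, likeness mostly reflects a fold change of similar size.

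**Figure D4:**
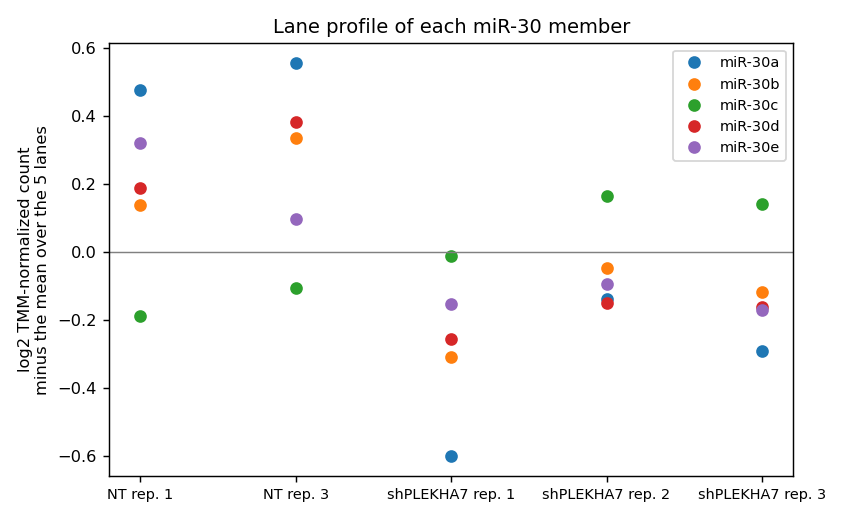
Log2 TMM-normalized count of each member minus its mean over the 5 lanes (y axis), by lane (x axis). miR-30a spans from 0.56 in NT replicate 3 to -0.60 in shPLEKHA7 replicate 1, miR-30b and miR-30d nearly coincide, and miR-30c runs the other way.

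A list of other miRNAs, meant to hold those that restrain epithelial-mesenchymal transition or mark epithelial identity, was described by count. The roles of these miRNAs were not checked here, that of miR-9 included, so a place on the list does not establish either role. miR-145 also belongs to the stromal list above. Of 20 names listed 19 were on the panel and 14 were tested, with 1 called lower (miR-29a, log2 -0.67, SE 0.15, edgeR adjusted p = 0.0317) and 0 higher, against 3.92% and 2.45% of all tested probes. The tested ones were the 5 of the miR-200 family, miR-205, miR-203, miR-34a, miR-29a, miR-29c, miR-101, miR-22, miR-9 and miR-145. The probes of miR-34b, miR-34c-5p, miR-29b, miR-153 and miR-138 did not pass the filter on low counts. No probe on the panel had the exact name miR-34b-5p. The median log2 fold change of the 14 was -0.20, beside 0.059 over all tested probes, and 12 of 14 were below 0, as were 43.6% of all tested probes. After miR-29a the lowest values were those of miR-9 (log2 -0.58, SE 0.26) and of miR-205, an epithelial miRNA that represses ZEB factors (log2 -0.46, SE 0.17), and neither passed. The 2 above 0 were miR-141 (log2 0.14, SE 0.25) and miR-145 (log2 0.070, SE 0.41). Beside the miR-30 median of -0.40 with 1 of 5 called, the let-7 and miR-98 family had a median of -0.27 with 1 of 8 tested members called lower (let-7g), and the miR-200 family a median of -0.15 with 0 of 5 called. A difference between the families was not tested.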

How the data were processed

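Total RNA was read on the nCounter panel in 5 lanes, 1 per sample, grouped by sample title. The deposited raw table holds whole-number counts per probe, with 654 human and 80 viral miRNA probes, per the file headers. Human values of the deposited normalized signal were the raw count times 1 factor per lane in 99.8% of cases (tolerance 0.02), while viral values were unscaled. The authors' deposited signed fold columns are a score built on the mean of the NT lanes and are quoted as theirs. Exporting software and genome build are not given in the sources used here.

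Probes above the limit of detection in at least 2 samples (204 of all miRNA probes) were fitted with edgeR 4.0.16 in R 4.3.3 (quasi-likelihood test, TMM, group only, adjusted p under 0.05). Each SE was taken as the size of the log2 fold change divided by the root of its F statistic. Alternatives used other scalings, DESeq2 1.42.0, limma 3.58.1 (human probes, pseudocounts of 1 and 10), negative controls subtracted (floor of 1), other filters, a replicate block and leaving out each sample. On simulated data edgeR called 70.2% of 2-fold, 30.8% of 1.5-fold and 0.518% of unchanged probes. The simulation gave every probe the same dispersion (0.0153) and no lane effect beyond depth, so these shares need not hold for the real lanes. Replicate lanes differed beyond counting noise (chi-square per degree of freedom 1.80 to 5.12). Each infection was read in 1 lane, so p-values measure the spread between infections and lanes together. In edgeR that spread is estimated with information shared over all tested probes. The family, lists and rules for naming were chosen with earlier results of these data known. Named probes were the members, the 3 nearest profiles of each and called members of the listed miRNAs. The values of miR-9, miR-205, miR-141, miR-145 and the intestinal probes were added after they were seen.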

Additional observations from a re-analysis of the deposited data

How the results depend on the processing

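miR-30a, miR-30b, miR-30d and miR-30e kept a negative log2 fold change in all 21 alternatives, and miR-30c was positive in 20 of 21 (-0.091 under spike-in totals). miR-30a was no longer called under housekeeping scaling (log2 -0.93), the equal deposited scaling (-0.93) and limma with a pseudocount of 1 (-0.93). miR-30b was called under spike-in totals (-0.74) and by DESeq2 (-0.44, where 138 of 204 adjusted p were withheld by its filter), but not by DESeq2 without that filter, an alternative added after the data had been seen. miR-30d was called under spike-in totals (-0.82).

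Members called lower numbered 0 under housekeeping, deposited and limma (pseudocount 1) settings, 2 by DESeq2 and at an adjusted p under 0.1, and 3 under spike-in totals. Probes called lower numbered 2 under those housekeeping, deposited and limma settings, 4 under upper-quartile scaling and with a pseudocount of 10, 13 at an adjusted p under 0.1 and 29 under spike-in totals. Probes called higher numbered 12 under total counts, 8 at an adjusted p under 0.1 and 3 with a pseudocount of 10. They numbered 2 above the limit in all samples and by DESeq2 without its filter, 1 with no filter and 0 by DESeq2. The DESeq2 Wald test gave 38 probes an unadjusted p under 0.05, counted over both directions. The members' median moved to -0.30 (total counts), -0.28 (upper quartile), -0.74 (spike-in totals) and -0.56 (no filter). The difference in the family's share, -1.25 percentage points, became -1.96 without the 5 most abundant probes in the total. With the negative controls subtracted, the ratio of miR-30b to miR-30e turned from -0.048 to 0.11 and that of miR-30d to miR-30e from -0.13 to 0.0071. The causes were not tested.

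With 1 sample left out, miR-30a ran from -0.96 to -0.74, miR-30b from -0.49 to -0.25, miR-30c from 0.20 to 0.33, miR-30d from -0.57 to -0.33, miR-30e from -0.42 to -0.24, and the median from -0.49 to -0.33. Members called lower ran from 0 to 1, probes called lower from 0 to 11 and higher from 0 to 9. The ratio of miR-30b to miR-30e ran from -0.26 to 0.16 and that of miR-30d to miR-30e from -0.33 to 0.083. Both NT and shPLEKHA7 have replicates 1 and 3, whose deviations from the group means correlated at 0.25 and 0.26 over 127 probes. The 2 NT lanes deviate from their mean by equal amounts in opposite directions, so both values rest on the same NT difference. Unlike numbers gave -0.25 (NT replicate 3 with shPLEKHA7 replicate 1) and -0.26 (NT replicate 1 with shPLEKHA7 replicate 3). No label ties a replicate number to an infection set, so pairing was not assumed. With the replicate block, miR-30a (-0.95) and miR-30b (-0.45, edgeR adjusted p = 0.00396) were called, 2 members in all, among 12 probes lower and 10 higher.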
